A study of Laodelphax striatellus with 6 samples.

Results

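Genes of fatty acid, wax and lipid metabolism were followed in whole bodies of the small brown planthopper, Laodelphax striatellus, a sap-feeding pest of rice, with and without treatment with β-asarone, a plant phenylpropanoid. The members were all assembled genes whose protein description names 1 of a fixed set of lipid enzymes, carriers or lipases, and 84 of the 59004 assembled genes in the table met this rule. Wild-type insects were profiled by poly(A) RNA sequencing in 3 untreated control libraries and 3 libraries from treated insects. The dose, exposure time, sex, stage and number of insects per library are not stated, nor is it stated whether libraries were made from separate cultures. Each p-value therefore reflects library-to-library spread, which may be technical only. All values are TPM, the length-corrected share of a transcript in its library per 1000000, and the sequencing depth behind them is unknown. In whole bodies, fewer cells of a type and less RNA per cell cannot be told apart.

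Insects build fatty acids from acetyl-CoA with acetyl-CoA carboxylase and fatty acid synthase, lengthen them with elongases, insert double bonds with desaturases and reduce them with fatty acyl-CoA reductases to the alcohols of waxes and cuticular lipids. The fat body stores them as triacylglycerol, lipases release them, and lipophorin carries lipid through the haemolymph. The carnitine shuttle brings fatty acids into mitochondria, where acyl-CoA dehydrogenases to thiolases shorten them to acetyl-CoA. Planthoppers secrete wax on the cuticle and harbour yeast-like symbionts in the fat body.

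The rule read descriptions only, and this limits its reach. Of the 15038 rows with L. striatellus itself as best hit, 97.8% were described as hypothetical proteins, and no member had this species as best hit. The brown planthopper Nilaparvata lugens was the best hit of 53 members and the white-backed planthopper Sogatella furcifera of 2. The other 29 members had best hits spread over 25 species outside planthoppers, among them wasps, mites, molluscs, corals and tunicates. A gene can be split over several rows, as with 4 rows of one assembled cluster described as acetyl-CoA carboxylase, so the 84 rows are not 84 genes. Averaged over the 6 libraries, 44 members reached 1 TPM and were tested, and 16 of them reached 5 TPM. The 40 members under this limit had means of at most 0.868 TPM. All 84 rows together held 424, 301 and 347 TPM in control replicates 1, 2 and 3 and 428, 354 and 334 TPM in asarone replicates 1, 2 and 3, and the groups overlapped.

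Control replicate 2 stood apart from the other libraries over the whole table. By median of ratios its size factor was 0.783, while the others had 1.00 to 1.13. Description patterns for muscle (11 of 12 rows tested), epidermis (42 of 42), gut (3 of 5), nervous tissue (5 of 14) and sperm and cilium (6 of 14) matched rows. The gut list was led by cathepsin B, at 77.3 to 85.6 TPM, and the nervous list by CUGBP Elav-like family member 1. Whether the RNA of these leading rows came from gut or nervous tissue was not tested. Both rows of the yolk pattern summed to only 1.17 to 2.27 TPM and were led by the vitellogenin receptor, not vitellogenin. The eggshell pattern matched 1 row, a chorion peroxidase. It was at 31.17, 7.8 and 13.38 TPM in the controls and 24.91, 10.72 and 17.74 TPM in treated insects. No row matched the haemocyte pattern.

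None of the 44 tested lipid metabolism genes differed between treated and control insects beyond the spread between libraries. None passed an adjusted p of 0.05, where 0.00403% of all 24816 tested rows did (limma, Benjamini-Hochberg over all tested rows), and the smallest adjusted p of a member was 0.98. None had an unadjusted limma p under 0.05 either, against 3.47% of all tested rows. Log2 changes, on the log2(TPM + 1) scale throughout, ran from -0.53 to 0.79. Treated insects had the higher mean log2 level in 23 members and the lower in 21, with a median log2 change of 0.07. Over all tested rows 62.8% were higher, with a median of 0.08. The members' split became 21 higher and 23 lower after median-of-ratios scaling, which set the median of all rows to 0.005 and that of the members to -0.02. Groups did not overlap for 4 members, or 9.09%, against 8.66% of all tested rows. Of these 4, 2 were higher after treatment, against 4.53% of all tested rows, and 2 were lower, against 4.14%. Limma's 95% interval lay between a log2 change of -1 and 1 for 32 of the 44 members, so that a doubling or halving of TPM + 1 was outside it. For the other 12 members the interval reached at least 1 of these limits. A doubling or halving of TPM itself is a smaller change on this scale, most of all in low rows. It can therefore lie within the interval of members among the 32. The 40 members under 1 TPM had no test. Groups did not overlap for 5 of them, against 7.8% of all 34188 rows under this limit, and these are named after their values were seen. Lower in treated insects were a second peroxisomal thiolase B (TRINITY_DN50325_c0_g1, starfish best hit) and an acyl-CoA dehydrogenase (TRINITY_DN27723_c0_g2, mite best hit). Also lower were a sphingolipid desaturase (TRINITY_DN11922_c0_g1, planthopper best hit) and a second row described as hormone-sensitive lipase (TRINITY_DN20282_c0_g2, spider best hit). This lipase row was at 0.51 to 0.76 TPM in the controls and 0.36 to 0.37 TPM in treated insects. Of all 2120 tested rows with a best hit outside planthoppers, 71.2% were lower in treated insects. Higher was a pancreatic triacylglycerol lipase (TRINITY_DN17369_c0_g1), at 0.14 to 0.33 TPM in the controls and 0.37 to 1.46 TPM in treated insects.

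**Figure D1:**
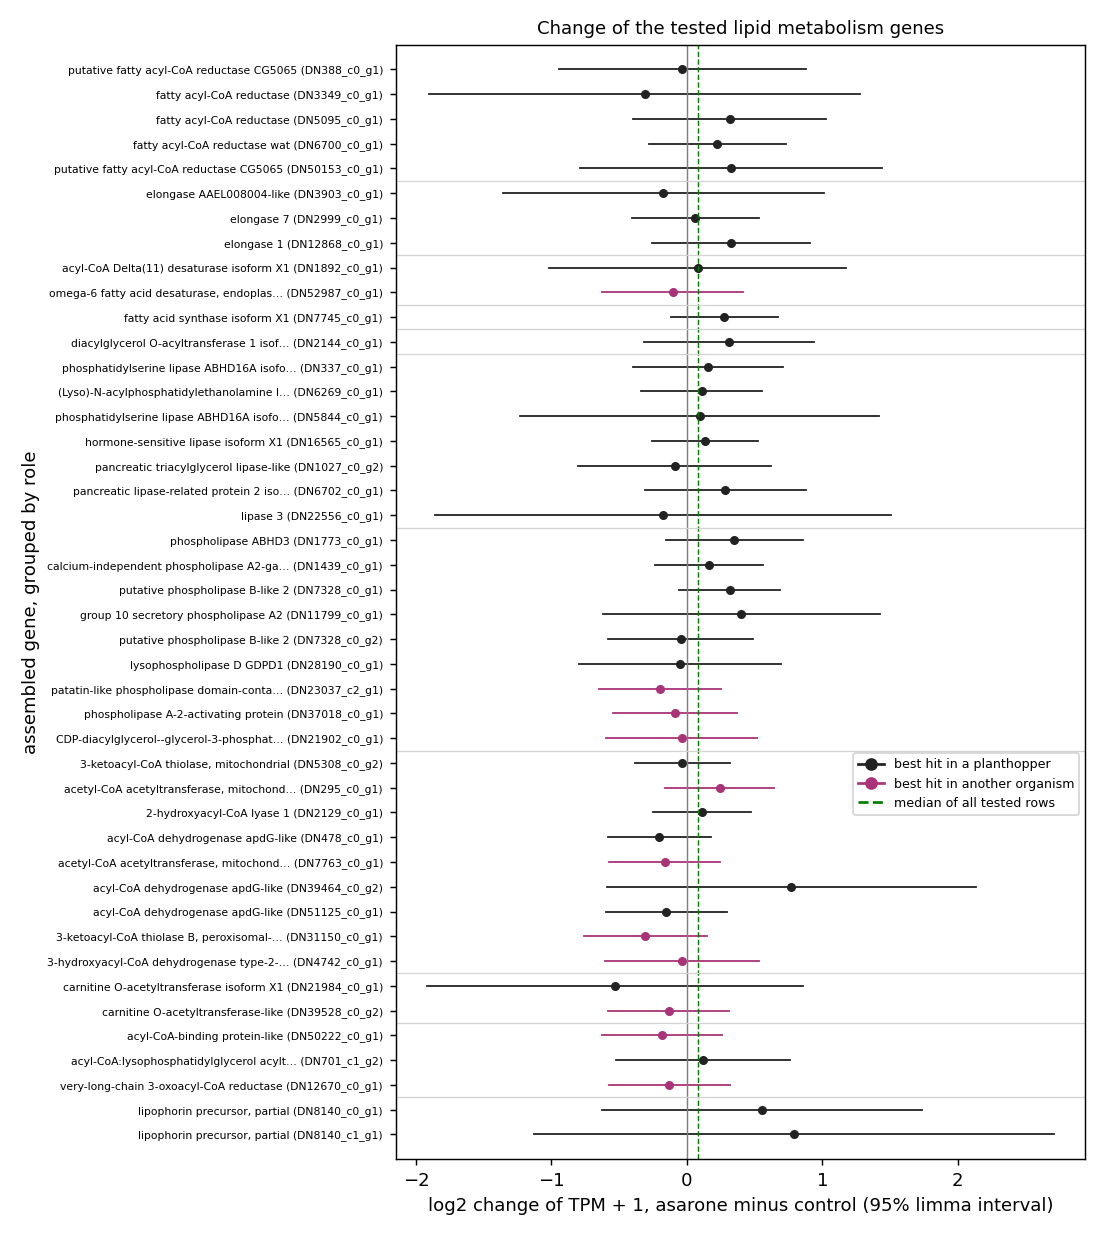
Log2 change of TPM + 1 (asarone minus control) on the x axis for each of the 44 tested genes on the y axis, grouped by role, with points for the limma estimate and bars for its 95% interval. Every interval includes 0, and 10 of the 11 genes with a best hit outside planthoppers lie below 0, the median of all tested rows being the dashed line at 0.08.

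Fatty acyl-CoA reductases, which make the fatty alcohols of waxes, held 26.5% of the TPM of all members in 7 rows, all with a planthopper best hit. Of the 5 tested, 3 had a higher and 2 a lower mean log2 level after treatment, and none passed the test. The most abundant member of all, a reductase similar to CG5065 of Drosophila (TRINITY_DN388_c0_g1), stood at 109, 36.8 and 58.7 TPM in control replicates 1, 2 and 3. In asarone replicates 1, 2 and 3 it stood at 61.7, 64.7 and 55.1 TPM. All treated values lay within the control range, which was set by the high value of replicate 1 and the low value of replicate 2 (log2 change -0.03, 95% interval -0.95 to 0.88, limma adjusted p = 0.993). Another reductase (TRINITY_DN3349_c0_g1) was at 10.5, 13.9 and 12.7 TPM in the controls and at 31.6, 5.32 and 4.94 TPM in treated insects. The treated libraries thus stood on both sides of the control range, with asarone replicate 1 high and the other two low (log2 change -0.31, 95% interval -1.90 to 1.28). Its within-group spread was larger than that of 96.8% of the 3316 rows with a mean from 10 to 50 TPM. Without asarone replicate 1 its log2 change was -1.11 with an unadjusted limma p of 0.00151, and the adjusted p was 0.847. A reductase of similar level (TRINITY_DN5095_c0_g1) was at 6.29, 14.5 and 12.3 TPM in the controls and at 14.6, 12.6 and 12.7 TPM in treated insects. Its groups overlapped, and its lowest value was in control replicate 1 (log2 change 0.32, 95% interval -0.40 to 1.03). The homologue of waterproof (TRINITY_DN6700_c0_g1), a reductase that in Drosophila serves the gas-filled airways, was at 2.89 to 3.30 TPM in the controls and 2.87 to 5.10 TPM in treated insects. Epidermal markers also varied between libraries, with summed TPM of 11568 to 17913 in the controls and 6853 to 18469 in treated insects over all 42 rows of the list, and their part in the spread of the reductases was not tested.

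**Figure D2:**
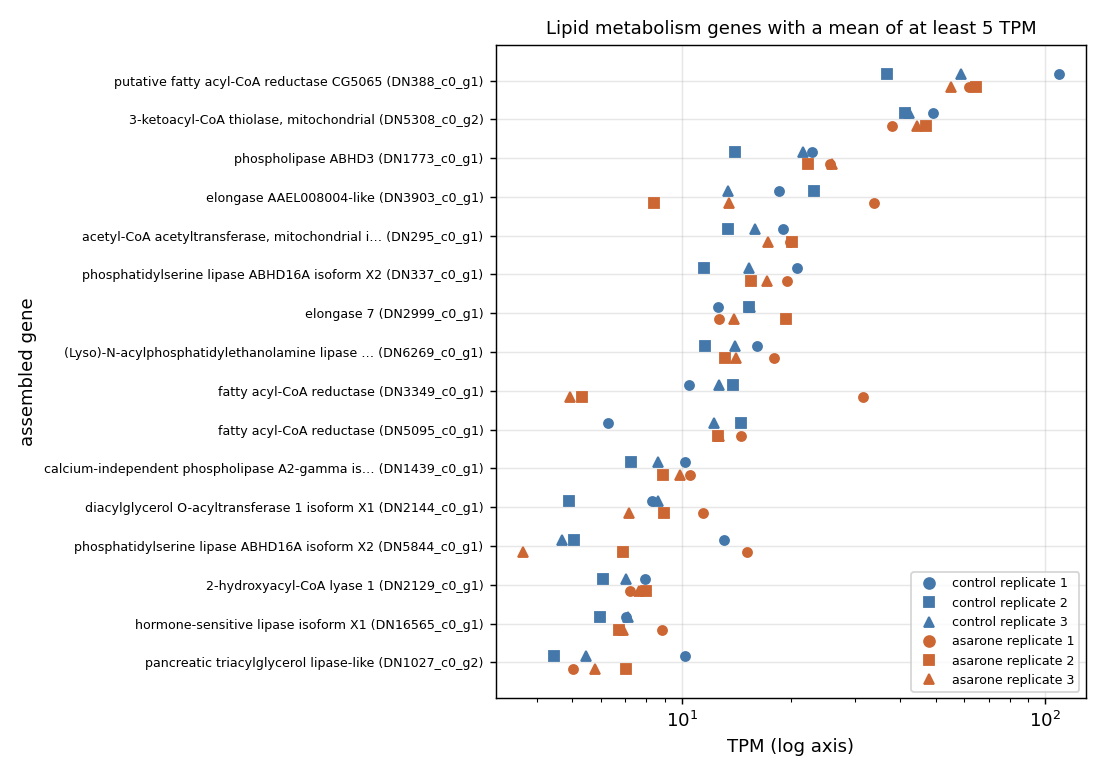
TPM on a log axis for the 16 genes averaging 5 TPM or more, with a point for each control library (upper, blue) and each asarone library (lower, orange), the shape giving the replicate number. In every one of these genes the groups overlap, and the reductase DN3349_c0_g1 has asarone replicate 1 at 31.6 TPM and the other asarone libraries at 5.32 and 4.94 TPM.

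Elongases catalyse the first step by which fatty acids grow beyond the length that fatty acid synthase makes. Of 4 rows 3 were tested, with 2 higher and 1 lower in treated insects. The most abundant, named for the mosquito gene AAEL008004 (TRINITY_DN3903_c0_g1), was at 18.6, 23.1 and 13.4 TPM in the controls and 33.9, 8.42 and 13.5 TPM in treated insects. Here too asarone replicate 1 was the highest of the 6 libraries, while asarone replicate 2 was the lowest, and the within-group spread exceeded that of 91.9% of rows of its level. The elongase of type 7 (TRINITY_DN2999_c0_g1) varied less, at 12.6, 15.4 and 15.4 TPM in the controls and 12.7, 19.3 and 14.0 TPM in treated insects (log2 change 0.06, 95% interval -0.41 to 0.53), and its sign turned under both other scalings. Among desaturases, the acyl-CoA Delta(11) desaturase (TRINITY_DN1892_c0_g1), of an enzyme family known in moths from pheromone synthesis, was at 7.18, 1.46 and 4.08 TPM in the controls. The treated libraries, at 5.05, 2.76 and 4.30 TPM, lay within that range. An omega-6 fatty acid desaturase with a coral as best hit (TRINITY_DN52987_c0_g1) was at 1.12 to 1.22 TPM in the controls and 0.72 to 1.23 TPM in treated insects.

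Fatty acid synthase (TRINITY_DN7745_c0_g1), which assembles palmitate, had a higher level in every treated library than in any control. It stood at 3.18, 2.63 and 3.25 TPM in the controls and 3.94, 4.32 and 3.36 TPM in treated insects. The gap between the groups, from 3.25 to 3.36 TPM, was small against their spread (log2 change 0.28, 95% interval -0.12 to 0.67, limma adjusted p = 0.98). After median-of-ratios scaling the groups overlapped, with control replicate 2 at 3.36 and asarone replicate 3 at 3.35. Acetyl-CoA carboxylase, which commits acetyl-CoA to synthesis, appeared in 5 rows, none with a planthopper best hit and all under the limit for testing, the most abundant (TRINITY_DN36813_c0_g1) at a mean of 0.457 TPM. Diacylglycerol O-acyltransferase 1 (TRINITY_DN2144_c0_g1), which makes triacylglycerol for storage, was at 8.27, 4.89 and 8.64 TPM in the controls and 11.4, 8.94 and 7.17 TPM in treated insects. Its groups overlapped through asarone replicate 3 (log2 change 0.31, 95% interval -0.31 to 0.94). Without control replicate 2, its lowest library, the log2 change was 0.086. No row was described as perilipin, the coat protein of lipid droplets.

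The role called neutral and acid lipases numbered 14 rows, of which 7 were tested, with 5 higher and 2 lower in treated insects. It took rows described as lipases without phospholipase or diacylglycerol in the name. Its most abundant rows, ABHD16A and the lipase of (lyso)-N-acylphosphatidylethanolamines, are named for phospholipids, so its sum is not that of neutral and acid lipases alone. The summed TPM of all 14 rows was 57.8 ± 17.3 in the controls and 62.5 ± 11.9 in treated insects (SD, n = 3). Hormone-sensitive lipase (TRINITY_DN16565_c0_g1), which in mammals mobilises stored fat, was at 7.01, 5.98 and 7.13 TPM in the controls and at 8.81, 6.71 and 6.92 TPM in treated insects. Asarone replicate 1 alone exceeded the control range (log2 change 0.13, 95% interval -0.26 to 0.52). Both rows described as phosphatidylserine lipase ABHD16A, an enzyme that makes lysophosphatidylserine in mammals, differed in how they varied. The first (TRINITY_DN337_c0_g1) was at 20.8, 11.5 and 15.3 TPM in the controls and 19.6, 15.5 and 17.2 TPM in treated insects. The second (TRINITY_DN5844_c0_g1) was at 13.1, 5.07 and 4.69 TPM in the controls and 15.1, 6.88 and 3.66 TPM in treated insects, and replicate 1 of both groups stood above all other libraries. The lipase of (lyso)-N-acylphosphatidylethanolamines (TRINITY_DN6269_c0_g1), precursors of signalling lipids, was at 11.6 to 16.1 TPM in the controls and 13.2 to 18.0 TPM in treated insects. A homologue of pancreatic triacylglycerol lipase (TRINITY_DN1027_c0_g2), named after a digestive enzyme of mammals, was at 4.47 to 10.2 TPM in the controls and 5.02 to 7.02 TPM in treated insects. The groups overlapped in each of these lipases.

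Phospholipases, which release fatty acids or head groups from membrane lipids, and genes of diacylglycerol metabolism formed the longest role, with 22 rows. Of the 9 tested, 4 had a higher and 5 a lower mean log2 level after treatment. The smallest unadjusted p of all members belonged to a putative phospholipase B-like 2 (TRINITY_DN7328_c0_g1), a homologue of a lysosomal protein, and this row is named here because of that value. It was at 4.68, 3.57 and 4.16 TPM in the controls and 5.42, 5.71 and 5.00 TPM in treated insects, so that the groups did not overlap (log2 change 0.32, 95% interval -0.06 to 0.69, limma adjusted p = 0.98). A second row of the same assembled cluster with the same description (TRINITY_DN7328_c0_g2) did overlap, at 1.16 to 1.76 TPM and 0.92 to 1.89 TPM. Phospholipase ABHD3 (TRINITY_DN1773_c0_g1), which in mice acts on phosphatidylcholines, was at 22.9, 14.0 and 21.6 TPM in the controls and 25.7, 22.3 and 26.0 TPM in treated insects. The groups overlapped through asarone replicate 2, which lay just under control replicate 1 (log2 change 0.35, 95% interval -0.15 to 0.86). Without control replicate 2, the lowest library, the log2 change was 0.14. Calcium-independent phospholipase A2-gamma (TRINITY_DN1439_c0_g1), of mitochondria and peroxisomes in mammals, was at 7.28 to 10.2 TPM in the controls and 8.91 to 10.5 TPM in treated insects. The patatin-like phospholipase 7 (TRINITY_DN23037_c2_g1), with an acorn worm as best hit, is named because its groups did not overlap, at 1.23 to 1.47 TPM in the controls and 0.97 to 1.05 TPM in treated insects (log2 change -0.20, 95% interval -0.65 to 0.25).

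Enzymes of acyl-CoA oxidation and thiolysis summed to nearly equal levels in both groups, 83.5 ± 5.41 TPM in the controls and 83.6 ± 6.29 TPM in treated insects (SD, n = 3). The 15 rows include a very-long-chain 3-hydroxyacyl-CoA dehydratase (TRINITY_DN40965_c0_g2, mean 0.658 TPM), taken in by its spelling. Of the 15 rows 9 were tested, with 3 higher and 6 lower in treated insects. Mitochondrial 3-ketoacyl-CoA thiolase (TRINITY_DN5308_c0_g2), which performs the last step of beta-oxidation, made up 52.2% of this sum. It was at 49.1, 41.1 and 42.1 TPM in the controls and 38.0, 47.0 and 44.4 TPM in treated insects, one of the narrower intervals among the members (log2 change -0.03, 95% interval -0.38 to 0.32). Mitochondrial acetyl-CoA acetyltransferase (TRINITY_DN295_c0_g1), which interconverts acetyl-CoA and acetoacetyl-CoA, was at 19.0, 13.4 and 15.9 TPM in the controls and 19.9, 20.1 and 17.3 TPM in treated insects. Its groups overlapped through asarone replicate 3 and control replicate 1 (log2 change 0.24, 95% interval -0.16 to 0.64). The peroxisomal 3-ketoacyl-CoA thiolase B (TRINITY_DN31150_c0_g1), with a starfish as best hit, is named because its groups did not overlap. It was at 1.28, 1.71 and 1.40 TPM in the controls and 0.90, 0.94 and 1.13 TPM in treated insects (log2 change -0.31, 95% interval -0.76 to 0.14, limma adjusted p = 0.98). In the carnitine shuttle, the planthopper carnitine O-acetyltransferase (TRINITY_DN21984_c0_g1), which moves acetyl groups onto carnitine, was at 2.44, 3.74 and 0.87 TPM in the controls and was listed at 0, 1.69 and 2.77 TPM in treated insects. The treated values above 0 lay within the control range. The other carnitine O-acetyltransferase (TRINITY_DN39528_c0_g2), with a marine snail as best hit, was at 1.17 to 1.63 TPM in the controls and 1.06 to 1.23 TPM in treated insects. The only palmitoyltransferase of this role (TRINITY_DN45367_c0_g1), with a coral as best hit, was under the limit for testing. It was listed at 0, 0.55 and 0.76 TPM in the controls and at 0.78, 1.49 and 0 TPM in treated insects.

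Lipid carriers were unevenly detected, with summed TPM of 0.95 to 10.16 in the controls and 4.68 to 10.95 in treated insects. Of all 84 members, 12 were listed at 0 in at least 1 library. The lipophorin precursor, the haemolymph lipid carrier, was split over 2 rows of one assembled cluster with a Sogatella furcifera best hit. The first (TRINITY_DN8140_c0_g1) was at 0.95, 2.56 and 3.91 TPM in the controls and 7.65, 2.87 and 2.22 TPM in treated insects. The second (TRINITY_DN8140_c1_g1) was listed at 0 in control replicates 1 and 2 and at 6.25 TPM in control replicate 3, against 3.30, 1.53 and 2.46 TPM in treated insects. The groups overlapped in both rows, and control replicate 3 was the highest control in each and above every treated library in the second (log2 changes 0.55 and 0.79, 95% intervals -0.63 to 1.73 and -1.13 to 2.71). Without control replicate 3 the second row had a log2 change of 1.75 with an unadjusted limma p of 0.00239 and an adjusted p of 0.988, while without control replicate 1 or 2 its log2 change was 0.32. The first row had a log2 change of 0.12 without asarone replicate 1, 0.19 without control replicate 1 and 0.85 without control replicate 3. A fatty acid-binding protein with a spider as best hit (TRINITY_DN49665_c0_g1) was at 2.48 TPM in asarone replicate 2 and listed at 0 in the other 5 libraries. Among other acyl-CoA proteins, the acyl-CoA-binding protein (TRINITY_DN50222_c0_g1), which keeps acyl-CoA in solution in the cell, had an oyster as best hit. It was at 4.04, 5.61 and 4.08 TPM in the controls and 3.30, 4.02 and 4.37 TPM in treated insects, with overlapping groups (log2 change -0.18, 95% interval -0.63 to 0.26). The lysophosphatidylglycerol acyltransferase (TRINITY_DN701_c1_g2), of phospholipid remodelling, was at 1.27 to 2.77 TPM in the controls and 1.84 to 3.08 TPM in treated insects. The 5 rows of this role summed to 9.83 to 10.97 TPM in the controls and 8.55 to 8.70 TPM in treated insects, the only sum of the 11 roles that did not overlap between groups. How often sums of other rows would not overlap was not tested. The acyl-CoA-binding protein made up 44.35% of the sum of this role. That sum also includes an acyl-CoA ligase similar to sidI (TRINITY_DN24219_c0_g1), listed at 1.55, 0 and 1.67 TPM in the controls and at 0 in all treated libraries. The part of each row in the gap was not tested.

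**Figure D3:**
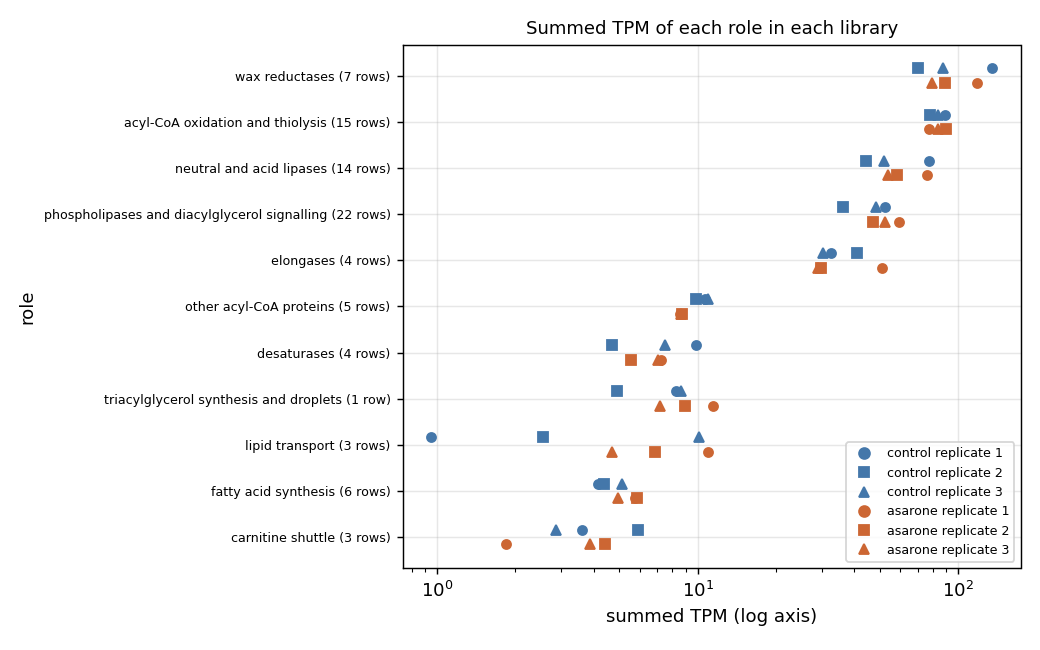
Summed TPM on a log axis of each of the 11 roles in each library, with control libraries above in blue, asarone libraries below in orange and the shape giving the replicate number. Wax reductases reach 135 TPM in control replicate 1 and 118 TPM in asarone replicate 1, and lipid transport ranges from 0.95 to 10.16 TPM among the controls.

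The 44 tested members fell into a pair of patterns across libraries according to their best hit. Of the 33 with a planthopper best hit, 26 were below their own mean of the 6 libraries in control replicate 2, and 26 were above it in asarone replicate 1. Of the 11 with another best hit, 10 were above their mean in control replicate 2 and 10 below it in asarone replicate 1. The same held for the rest of the table: the median of log2(TPM + 1) minus the row mean in control replicate 2 was -0.30 over 12248 planthopper rows and 0.12 over 2120 rows with another best hit. It was -0.29 and 0.19 over the corresponding members. Treated insects were lower in 10 of the 11 members with another best hit (median log2 change -0.13) and in 71.2% of the 2120 rows of that kind (median log2 change -0.13). Without control replicate 2 they were lower in 7 of the 11 and in 71.8% of the 2120 rows. Of the 33 members with a planthopper best hit, 22 were higher after treatment and the median log2 change was 0.12, against 0.10 for all such rows. Without control replicate 2 the 33 members were split 18 to 15, with a median log2 change of 0.02, while 56.4% of all planthopper rows were lower, with a median of -0.02. The source of the rows with other best hits was not tested.

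**Figure D4:**
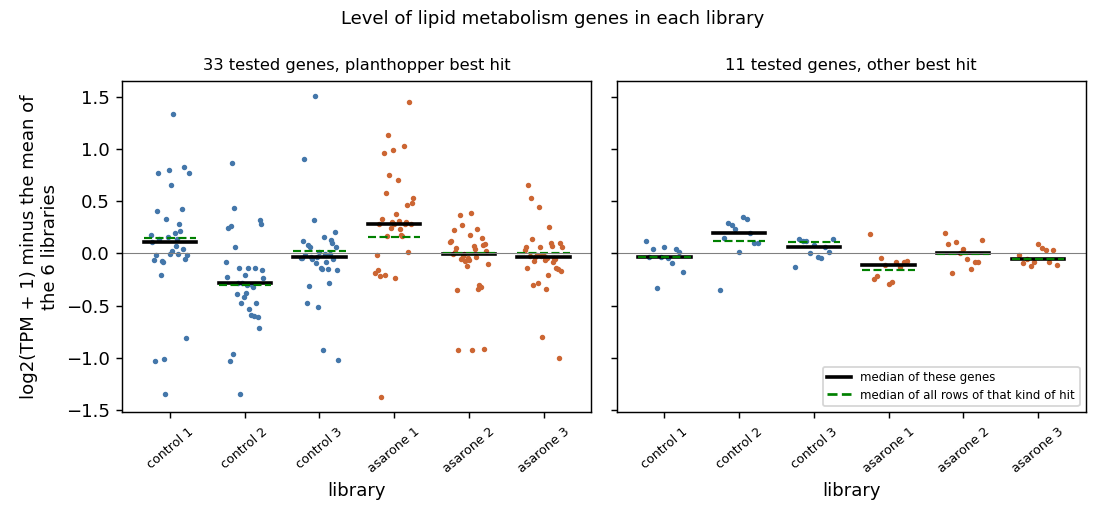
Log2(TPM + 1) minus the mean of the 6 libraries for each tested gene (points) in each library, for 33 genes with a planthopper best hit on the left and 11 with another best hit on the right, with the median of these genes (black) and of all tested rows of that kind of hit (dashed). Control replicate 2 has medians of -0.29 on the left and 0.19 on the right, and asarone replicate 1 has 0.29 on the left and -0.11 on the right.

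Other genes of lipid metabolism, outside the rule, were counted by 7 lists of descriptions covering fatty acid activation, further beta-oxidation steps, citrate and NADPH supply, glycerolipid synthesis, regulators, sterol and isoprenoid supply and sphingolipids. Of 54 rows 35 were tested, none passed the test and none had an unadjusted limma p under 0.05. Treatment was the higher group in 21 cases and the lower in 14, and the median log2 change was 0.08, equal to that of all tested rows to 2 decimals. Fatty acid activation was led by the very long-chain fatty acid ligase bubblegum (TRINITY_DN5083_c0_g1), which in Drosophila activates very long-chain fatty acids. It was at 81.2, 70.4 and 93.1 TPM in the controls and 91.3, 89.8 and 73.6 TPM in treated insects, a level above that of the most abundant member. NADP-dependent malic enzyme (TRINITY_DN20_c0_g1), which supplies NADPH for fatty acid synthesis, was at 106 to 113 TPM in the controls and 98.5 to 111 TPM in treated insects, with overlapping groups and a log2 change of -0.05 (SE 0.12). The beta subunits of the trifunctional enzyme (TRINITY_DN4681_c0_g1) and of the electron transfer flavoprotein (TRINITY_DN50531_c0_g1), both of mitochondrial beta-oxidation, were lowest in control replicate 2, at 33.5 and 33.3 TPM. In the other libraries they ranged from 39.2 to 48.4 TPM and from 42.6 to 51.5 TPM. Sterol regulatory element-binding protein 1 (TRINITY_DN7920_c0_g1), a transcription factor of lipid synthesis, was at 0.78 to 1.52 TPM in the controls and 1.25 to 1.51 TPM in treated insects. The list of glycerolipid synthesis also took in mucolipin and lysocardiolipin acyltransferase by their spelling. In the same way the list of further beta-oxidation steps took in a very-long-chain enoyl-CoA reductase (TRINITY_DN9403_c0_g1).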

How the data were processed

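Per the labels' protocols, poly(A) RNA of whole bodies was made into strand-marked libraries. StringTie 1.3.4d, HISAT2 2.0.4, DESeq2, edgeR and cutadapt 1.9 are listed, per the submitters' processing notes, with no role for each. Which tool gave the values, and on which genome build, is not given in the sources used here. As deposited by the authors, the TPM values have 2 decimals and a table name that says FPKM, but each library sums to 1000000 within rounding, as TPM does. Depth cannot be recovered from TPM, so counting intervals are left out. The authors' group means were not used.

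Libraries were grouped by title. All 24816 rows averaging 1 TPM or more were fitted with limma 3.58.1 (R 4.3.3, moderated with a robust trend) on log2(TPM + 1). Tests were two-sided, with Benjamini-Hochberg adjustment and a threshold of 0.05. The fit was tested on simulated data only for log2 changes larger than that of any member, in rows averaging 5 TPM or more. That simulation held no shift of a whole library and no smaller changes, so it does not bear on changes of the members' size. Changes of low genes are understated on this scale. Members, roles, lists and the rule for named genes were chosen with earlier results of these data known. The rule took, in each role, the 2 most abundant members and, at 5 TPM or more, that with the smallest p. Over all members at 5 TPM or more it then took the 5 most variable and those with groups that did not overlap. No member (0) at that level had groups that did not overlap. Rows named outside it (low rows with groups that did not overlap, rows at 0, other rows of a cluster or role, rows with names from fungi, other lipid genes) were chosen after their values were seen. Alternatives were pseudocounts of 0.1 and 0.5, other filters, median-of-ratios and quantile scaling, limma without its trend and robust options, a replicate block, planthopper rows only and leaving out each library. Sequences of the members were not used here. Figures were drawn with matplotlib 3.10.9.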

Additional observations from a re-analysis of the deposited data

How the results depend on the processing

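The count of members past the threshold was 0 under every alternative run, and the count with an unadjusted limma p under 0.05 was 0 except on leaving out a library, where it ranged from 0 to 2. It was 2 without control replicate 3 (a lipophorin row and an acyl-CoA dehydrogenase row), 1 without asarone replicate 1 (a fatty acyl-CoA reductase) and 1 without asarone replicate 3 (pancreatic lipase-related protein 2). These are counts out of 44 members, and the same fits gave, in this order, 821, 769 and 787 such rows among all 24816 tested. In the main fit, 1 of all tested rows passed the threshold. No row (0) did under either scaling, when any library was left out (0 to 0), with the replicate block, among planthopper rows only, at a pseudocount of 0.1, without a filter or among rows averaging 5 TPM or more. The share of members higher in treated insects was 52.3%, against 62.8% of all tested rows. It became 68.8% of the 16 averaging 5 TPM or more, against 66.65% of all 8270 such rows. Under both scalings it was 47.7%, against 50.8% of all tested rows with median-of-ratios and 53.0% with quantile scaling. On leaving out a library it was 50.0% to 61.4%, against 42.9% to 68.8% of all tested rows. The members' median log2 change of 0.07 became -0.02 with no filter, -0.02 with median-of-ratios scaling, -0.006 with quantile scaling and -0.003 to 0.19 on leaving out a library. The elongase TRINITY_DN2999_c0_g1 turned to -0.041 and -0.0070, and the lipase TRINITY_DN5844_c0_g1 to -0.00047 and -0.0040, under median-of-ratios and quantile scaling. The cause of these changes was not tested.

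On leaving out a library the log2 change changed sign for 22 of the 44 tested members, among them 15 of the 31 named in the text with a fit. It ranged from -0.38 to 0.48 for TRINITY_DN1892_c0_g1, -0.93 to 0.028 for TRINITY_DN21984_c0_g1, -0.11 to 0.18 for TRINITY_DN2999_c0_g1, -1.11 to 0.11 for TRINITY_DN3349_c0_g1, -0.041 to 0.36 for TRINITY_DN337_c0_g1, -0.40 to 0.37 for TRINITY_DN388_c0_g1, -0.70 to 0.25 for TRINITY_DN3903_c0_g1, -0.011 to 0.53 for TRINITY_DN5095_c0_g1, -0.17 to 0.013 for TRINITY_DN52987_c0_g1, -0.097 to 0.053 for TRINITY_DN5308_c0_g2, -0.38 to 0.52 for TRINITY_DN5844_c0_g1, -0.015 to 0.22 for TRINITY_DN6269_c0_g1, -0.12 to 0.25 for TRINITY_DN701_c1_g2, -0.30 to 0.22 for TRINITY_DN1027_c0_g2 and -0.20 to 0.095 for TRINITY_DN7328_c0_g2.

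The labels do not say whether libraries of the same replicate number belong together. Deviations from the group means correlated at 0.157, 0.081 and -0.035 for numbers 1, 2 and 3, and at -0.139 to 0.061 between unlike numbers. With the replicate block 0 members and 0 rows in all passed the threshold, the smallest limma adjusted p of a member being 0.912. Rows with an unadjusted limma p under 0.05 rose from 860 to 1039 over the whole table. With 3 libraries a group, 12 of the 44 intervals reached a log2 change of 1 in size, so a change of that size lay within the interval of these members.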

Other observations

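A set of 8 members, picked by description after the values were seen, carries names first given to genes of fungi: acyl-CoA ligase sidI and acyl-CoA dehydrogenase apdG, named in Aspergillus, and phospholipase C1020.13c, named in fission yeast. All have Nilaparvata lugens as best hit. Their highest library was control replicate 3 for 6 rows and control replicate 2 for the other 2 rows. Among all 24816 tested rows, control replicate 3 was the highest library in 13.9% and control replicate 2 in 10.2%. The 8 rows, of which 3 were tested, come from 6 assembled clusters. Their summed TPM was 8.19, 8.38 and 13.4 in control replicates 1, 2 and 3 and 6.62, 8.42 and 8.00 in asarone replicates 1, 2 and 3, so the sums overlapped. The most abundant, TRINITY_DN478_c0_g1, was at 3.67, 4.81 and 4.33 TPM in the controls and 3.39, 3.86 and 3.45 TPM in treated insects. A row of another apdG-like cluster, TRINITY_DN39464_c0_g2, was listed at 0 in control replicates 1 and 2, at 2.82 TPM in control replicate 3 and at 1.48, 1.38 and 2.22 TPM in treated insects, with the same controls at 0 as the second lipophorin row.

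Asarone replicate 2 was the only library with a value above 0 for TRINITY_DN49665_c0_g1 (fatty acid-binding protein, 2.48 TPM), TRINITY_DN52955_c0_g1 (malic enzyme with a water flea as best hit, 8.99 TPM) and TRINITY_DN51285_c0_g1 (glycerol-3-phosphate acyltransferase 3 with a beetle as best hit, 7.18 TPM).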
